A study of Homo sapiens with 12 samples.

Results

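Replication-dependent histone genes encode the bulk of the histones that package newly copied DNA. Their members were taken as every gene whose symbol is H1-1 to H1-6 or begins with H2AC, H2BC, H3C or H4C followed by a number, with pseudogenes left out. This gave 68 of the 60649 genes in the count tables: 6 H1, 15 H2A, 19 H2B, 13 H3 and 15 H4 genes. Of these, 55 lay on chromosome 6 between positions 25726063 and 27893891, 11 on chromosome 1, 1 on chromosome 12 and 1 on chromosome 21.

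The RNA came from SBC3, a human small cell lung cancer line, grown as spheroids. The treatment label divides 12 libraries into 4 groups of 3: control, teriflunomide, lurbinectedin, and teriflunomide with lurbinectedin, here called the combination. Teriflunomide inhibits dihydroorotate dehydrogenase, an enzyme of pyrimidine synthesis, and lurbinectedin binds the minor groove of DNA, alkylates guanines and blocks transcription by RNA polymerase II. The labels give no dose, no exposure time, no vehicle for the control and no statement that the replicates were separate cultures, so p-values measure the spread between these libraries, which may be technical, and all results come from a single cell line.

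Core histones H2A, H2B, H3 and H4 form the nucleosome, and H1 binds the linker DNA between nucleosomes. The replication-dependent genes are transcribed in S phase, when NPAT, a coactivator held in histone locus bodies, drives them. Their messenger RNAs are the known exception among animal messages, since they end in a conserved stem-loop in place of a poly(A) tail. The stem-loop-binding protein SLBP holds that hairpin through cleavage, export and translation, and when DNA synthesis stops the messages are uridylated and degraded. Some of these genes also give polyadenylated transcripts that run past the stem-loop. The libraries here were made with a kit that selects polyadenylated RNA, so a value below is the level of message that entered such a library and not the total message of the cell.

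The hairpin is shown first because it is the tail-less end that tells these messages from others. It was found in 29 of the 66 members that have a GENCODE 29 transcript. The search used a fixed pattern within annotated transcripts, which may end before the hairpin. A member without a match, such as H2BC12 or H4C3, is thus not shown to lack it. The stem-loop is in capitals, with 5 bases on each side, and each line is a different form or flank.
H2BC21: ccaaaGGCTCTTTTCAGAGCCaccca
H2AC25: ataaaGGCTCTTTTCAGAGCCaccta
H2BC5: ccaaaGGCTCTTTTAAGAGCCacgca
H2AC11: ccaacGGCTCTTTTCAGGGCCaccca
H4C8: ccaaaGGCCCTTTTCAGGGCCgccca
H4C14: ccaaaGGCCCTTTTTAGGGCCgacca
The form printed for H2BC21 was shared by 15 members, 4 of H2A, 8 of H2B and 3 of H3. The form of H2BC5 was shared by 4 members (H2BC4, H2BC5, H2BC7 and H3C8), and the forms of H4C8 and H4C14 were held by 5 and 3 members, all H4. The form of H2AC11 was found there alone. Annotation ran on for 1729 bases after the hairpin in H2BC21, 1655 in H4C8, 1167 in H4C14 and 390 in H2AC25, but for 39 in H2BC5.

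Total counts per library were 23206414 to 33222162. The members took 0.0129% to 0.0144% of the counts in control libraries. The mitochondrially encoded share was 6.26% to 7.17% in control and 22.6% and 24.9% in teriflunomide replicate 3 and combination replicate 2, against 8.42% to 17.05% in the other treated libraries, so results are also given without those libraries. Of 11 small cell lung cancer and neuroendocrine markers, 5 reached 1 CPM in control, with YAP1 at 246 CPM and NEUROD1 at 4.03 CPM, while INSM1 and UCHL1 had 0 counts in every library. Of 4 epithelial markers only KRT8 reached 1 CPM in control, with EPCAM and CDH1 at 0.0638 and 0.0485 CPM or less in every library. Fibroblast markers, 6 in all, summed to 187 to 550 CPM, with COL1A1 and COL1A2 at 266 and 270 CPM in control and 107 and 99.9 CPM with lurbinectedin, while DCN was near 0 and LUM had 0 counts; the part of this in the results was not tested. Leukocyte and endothelial marker lists summed to at most 2.42 and 0.629 CPM in any library. These are bulk samples, in which fewer cells in S phase and less message per cell cannot be told apart.

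In all, 42 members passed the filter on low counts and were tested: 4 H1, 10 H2A, 16 H2B, 4 H3 and 8 H4 genes. The 26 members that did not pass had at most 16 counts in any library, and 6 of them had 0 counts in all 12. Most of the H3 family fell out this way, 9 of 13 members. A member can pass through the group in which it is high: H4C1, H1-3, H2BC10, H2BC13 and H2AC16 had 10 counts in each library of the control group alone, H2AC20, H2AC14, H1-5 and H2BC7 in each library of the control and teriflunomide groups alone, and H2AC17 and H4C12 in each library of the lurbinectedin and combination groups alone. Counts over the tested members therefore describe those members and are not counts over the family.

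H2BC12, an H2B gene at chr6:27146361-27146855 (minus strand), was the highest member in control at 71.6 CPM per kilobase of exon. It alone held 28.1% of the members' summed CPM in control, and the 5 highest members held 58.0%. H4C3 followed at 16.6 CPM per kilobase, then the linker histone gene H1-2 at 15.0, H2BC5 at 11.7, H2AC25 at 6.01 and H2AC6 at 5.97. The H3 genes were low, with H3C10 highest at 1.06 CPM per kilobase. Of the H2BC12 exon, 74.1% of 50-base words occur in another annotated gene, so its count depends on how reads with several matches were treated, which is not given in the sources used here.

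The summed level of the 68 members was 126, 120 and 132 CPM in the control libraries. It was 116, 111 and 95.0 CPM with teriflunomide, 243, 194 and 207 CPM with lurbinectedin, and 180, 215 and 172 CPM with the combination. Both groups that received lurbinectedin lay above all control libraries, and the teriflunomide group lay below them. CPM is a level relative to the other RNA of the same library. A higher value, here and below, therefore need not be more message in the cell. H2B supplied most of each sum, 71.0 ± 2.96 CPM in control and 135 ± 16.5 CPM with lurbinectedin (mean ± SD, n = 3). H4 ran from 12.2 ± 2.78 CPM in control to 7.30 ± 1.03 CPM with teriflunomide and 20.4 ± 3.15 CPM with lurbinectedin (SD, n = 3). Summed H2A moved least, 24.4 ± 0.454 CPM in control, 23.5 ± 1.26 CPM with teriflunomide and 29.7 ± 4.62 CPM with lurbinectedin (SD, n = 3).

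**Figure D1:**
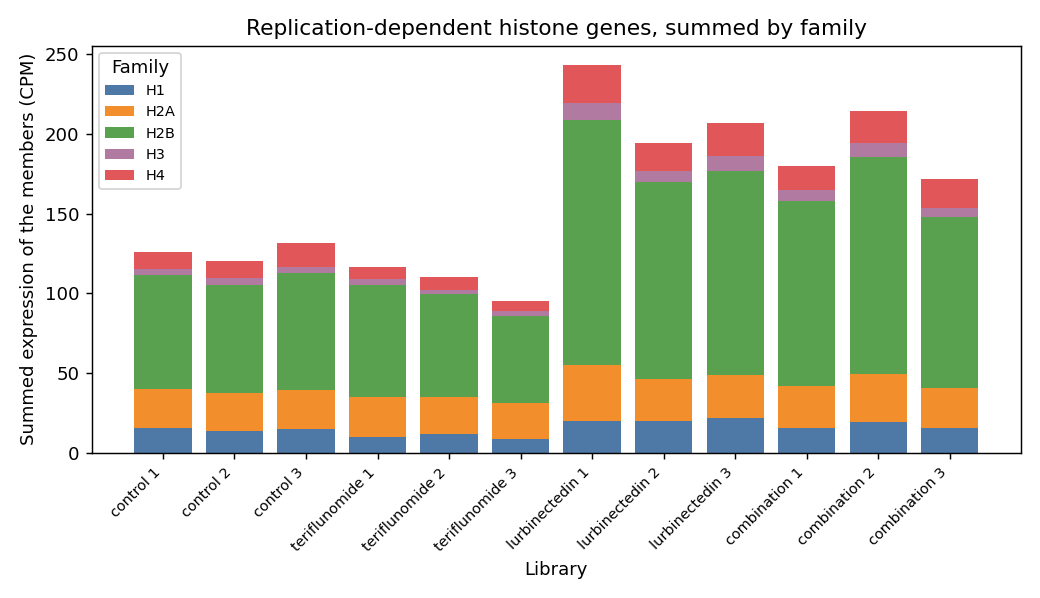
Summed expression of the 68 members in CPM (y axis) in each of the 12 libraries (x axis), stacked by family. The lurbinectedin and combination libraries stand at 172 to 243 CPM and the control libraries at 120 to 132 CPM, with H2B the largest block in each bar.

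With teriflunomide alone, 5 of the 42 tested members fell and none rose. The falls were H4C3, H2AC16, H1-5, H1-4 and H2BC9, so that H1, H2A, H2B and H4 were each represented. The fall of H4C3 was known from earlier results of these data when the members were chosen. H2AC16 reached 10 counts in every library of the control group alone. The count of 5 is therefore not independent of how members were chosen and filtered. Among all 16683 genes tested, 2.13% were called lower and 3.88% higher in this comparison (edgeR quasi-likelihood test, adjusted p under 0.05 over all genes). The median log2 fold change of the tested members was -0.36, and 31 of the 42 were negative, against a median of 0.03 over all genes tested. No member reached the threshold upward, where H2BC6 had the highest value, 0.70 ± 0.25 (log2 fold change ± SE, adjusted p = 0.111).

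H4C3 (ENSG00000197061.5, chr6:26103933-26104337, plus strand) encodes histone H4 and was the H4 gene with the highest level per kilobase. It stood at 5.90, 5.78 and 8.45 CPM in control and at 2.32, 2.66 and 1.499 CPM with teriflunomide. All 3 teriflunomide libraries were below all controls, with 44 to 298 counts per library over the series. The log2 fold change was -1.63 ± 0.23 (SE), a 3.09-fold fall (adjusted p = 0.00182 by edgeR). That H4C3 fell was known before the members were chosen, so this p-value is no new support.

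H2AC16, an H2A gene at chr6:27865317-27865798, was at 0.536, 0.401 and 0.538 CPM in control and at 0.147, 0.0599 and 0.102 CPM with teriflunomide. The groups did not overlap, but the gene never exceeded 18 counts and could be tested through its control libraries. Its log2 fold change was -2.21 ± 0.39 (SE, adjusted p = 0.00609 by edgeR). The calls of H4C3 and H2AC16 held in each alternative that gave them an adjusted p (DESeq2 gave H2AC16 none), including the one without teriflunomide replicate 3 and combination replicate 2, where H4C3 was at -1.44 ± 0.22 and H2AC16 at -2.21 ± 0.51.

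H1-5 and H1-4 encode linker histones. H1-5 was at 1.44, 0.769 and 0.866 CPM in control and 0.293, 0.299 and 0.341 CPM with teriflunomide, a log2 fold change of -1.71 ± 0.35 (SE, adjusted p = 0.0144 by edgeR). H1-4 was at 2.41, 1.37 and 2.30 CPM in control and 0.821, 1.05 and 0.715 CPM with teriflunomide, a log2 fold change of -1.23 ± 0.24 (SE, adjusted p = 0.0118 by edgeR). Neither gene had overlapping groups, although control replicate 1 held the highest value of both. Without that library the adjusted p was 0.0842 for H1-5 and 0.0704 for H1-4, and the call of H1-4 was also lost without control replicate 3 (adjusted p = 0.0736); edgeR gave all of these.

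H2BC9 was at 2.68, 2.71 and 3.35 CPM in control and 1.76, 1.59 and 1.33 CPM with teriflunomide, a log2 fold change of -0.90 ± 0.22 (SE, adjusted p = 0.0339 by edgeR). The groups did not overlap. Its call was lost in 6 of 14 alternatives, among them the removal of any 1 control library. When control replicate 1 was left out 2 members were called lower, and when control replicate 3 was left out 3 were.

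Other abundant members did not pass the test with teriflunomide. H2BC12 was at 36.2, 34.1 and 36.0 CPM in control and 32.6, 26.5 and 16.3 CPM with teriflunomide, with the lowest value in replicate 3 and a log2 fold change of -0.49 ± 0.19 (edgeR adjusted p = 0.131). H2AC25 was at 5.46, 5.45 and 5.23 CPM in control and 4.54, 4.82 and 1.74 CPM with teriflunomide, again lowest in replicate 3. H2AC6 lay the other way, at 9.92, 9.90 and 10.04 CPM in control and 12.6, 11.4 and 12.5 CPM with teriflunomide, and H2BC5 at 10.3, 9.996 and 10.3 CPM against 12.6, 14.1 and 16.3 CPM. Neither passed the test (H2AC6 0.29 ± 0.17, adjusted p = 0.296; H2BC5 0.49 ± 0.16, adjusted p = 0.0897, edgeR). Without teriflunomide replicate 3 and combination replicate 2, H2BC5 was called higher at 0.39 ± 0.12 (edgeR adjusted p = 0.029) and H2BC18 lower at -0.60 ± 0.17 (edgeR adjusted p = 0.018).

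**Figure D2:**
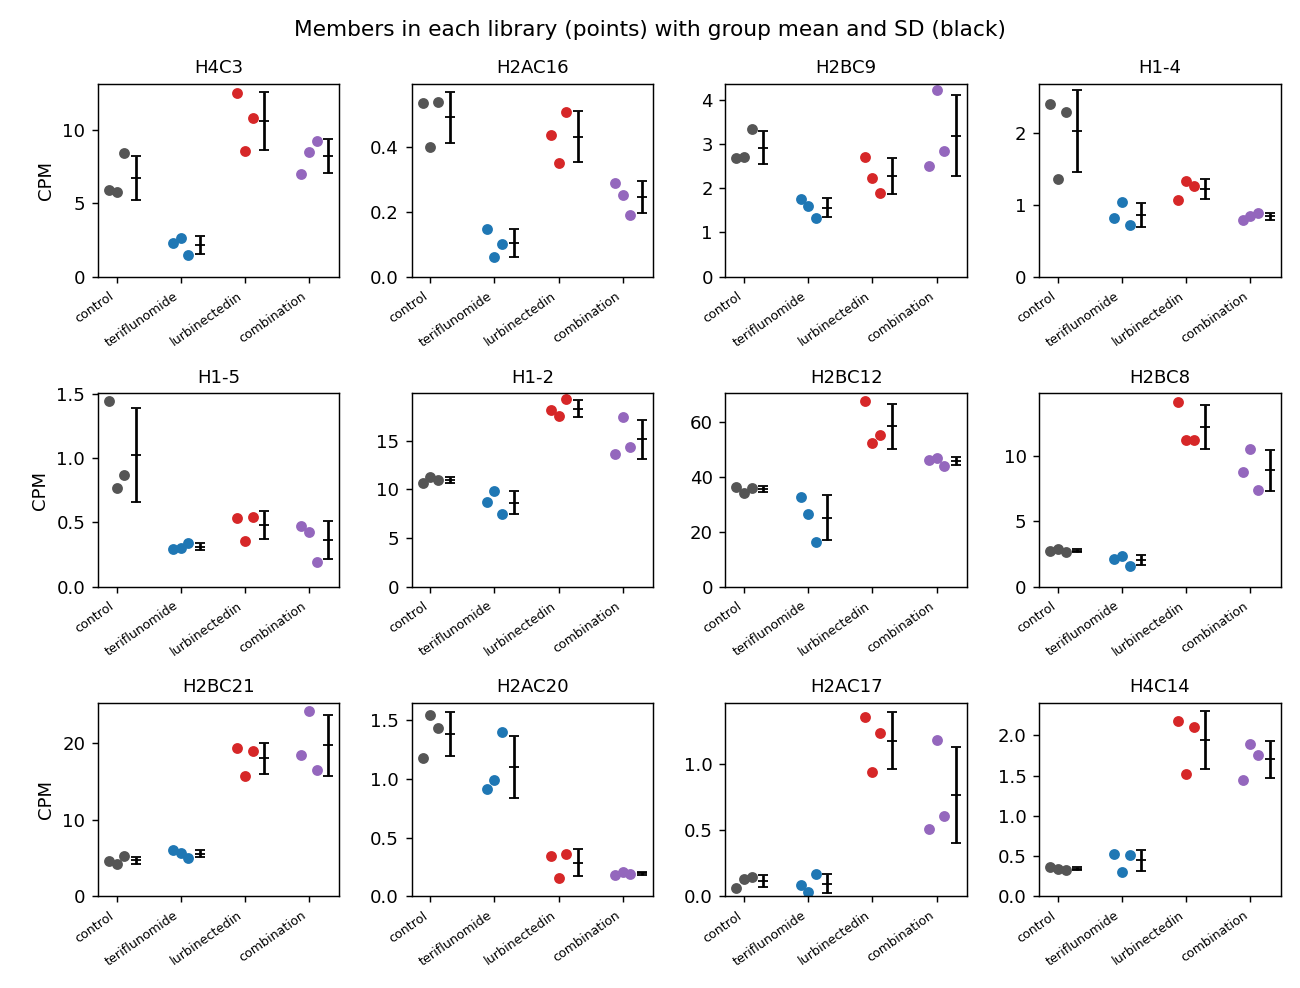
CPM (y axes, each from 0) of 12 members in the 4 groups (x axes), with a coloured point for each library and the group mean ± SD in black. H4C3, H2AC16, H2BC9, H1-4 and H1-5 are lower with teriflunomide in every library than in any control, and H2BC8, H2BC21, H2AC17 and H4C14 are higher in every library that received lurbinectedin.

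The members differed by the length of their annotated exons, a split made after the values were seen and therefore given without a test. In 24 tested members with under 1000 bases of exon, the median log2 fold change with teriflunomide was -0.84, 22 were negative and 4 were called lower. All 5 members that had 10 counts in each library of the control group alone are in this class, H2AC16 among them. Such members could be tested because they were high in control, so the 2 classes are not alike in how they passed the filter. In 18 members of 1000 bases or more the median was -0.01, 9 were negative and only H2BC9 was called. The summed level of the shorter members was 83.4 ± 3.74 CPM in control and 62.6 ± 9.50 CPM with teriflunomide, and that of the longer ones 42.7 ± 2.18 and 44.7 ± 2.04 CPM (SD, n = 3). In the teriflunomide libraries the shorter members summed to 69.3, 66.8 and 51.8 CPM, lowest in replicate 3. Much of that sum is H2BC12, which was not called, at 35.4 ± 1.12 CPM in control and 25.1 ± 8.21 CPM with teriflunomide (SD, n = 3). With lurbinectedin the shorter members had a median of -0.12, with 9 called higher and 5 lower, and the longer ones a median of 0.58, with 8 higher and 1 lower. The 3337 tested genes with the shortest genomic span, up to 5206 bases, held 33 of the 42 tested members. The median of these genes was -0.08 with teriflunomide and 0.70 with lurbinectedin, and with lurbinectedin 51.1% of them were called higher and 12.3% lower.

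**Figure D3:**
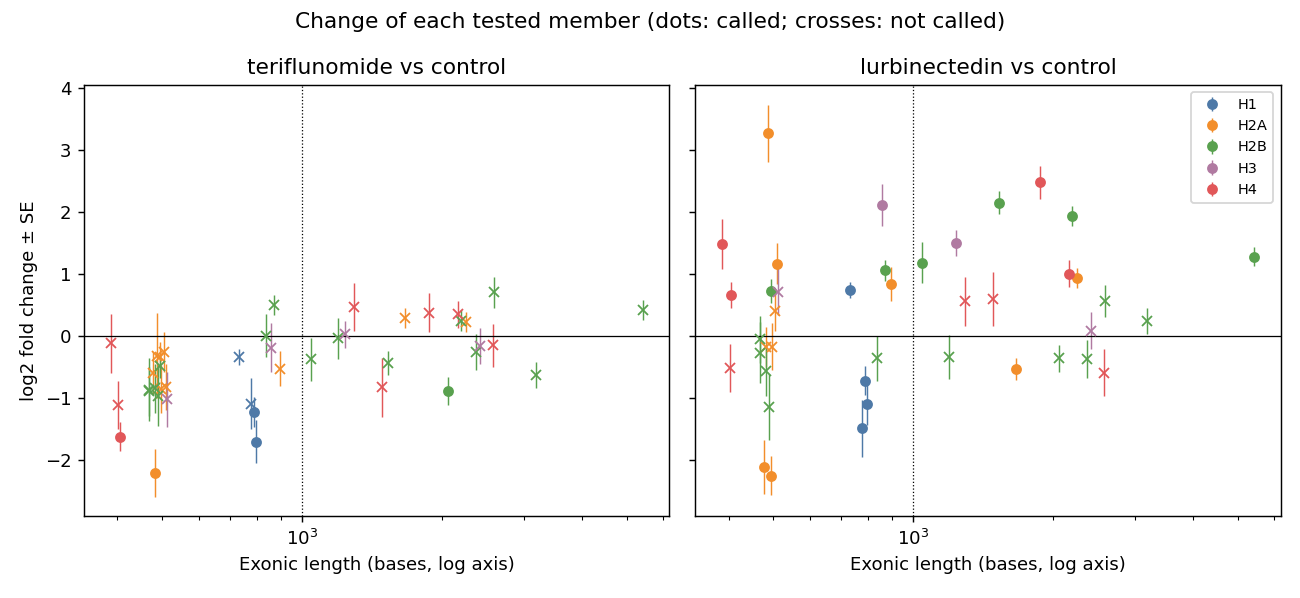
Log2 fold change ± SE of the 42 tested members (y axis) against exonic length in bases (x axis, log scale), for teriflunomide (left) and lurbinectedin (right) against control. Dots passed the test and crosses did not. Left of the dotted line at 1000 bases, 22 of 24 members are negative with teriflunomide, and to its right 9 of 18 are. The 5 members that had 10 counts in each library of the control group alone are all on the left.

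Lurbinectedin changed 23 of the 42 tested members, 17 upward and 6 downward. Among all genes tested, 36.0% were called higher and 35.7% lower, against 40.5% and 14.3% of the tested members. Beside the genes of the shortest span given above, the members' share called higher was the smaller and the share called lower was near theirs. With library size as the only scaling, 13 members were called higher and 8 lower, and the share of all calls that were higher went from 50.2% to 39.2%. The median log2 fold change was 0.48 in the tested members and 0.05 in all genes. Rises were found in every family: 6 of 16 tested H2B genes, 4 of 10 H2A, 2 of 4 H3, 4 of 8 H4 and 1 of 4 H1. The falls were 3 H2A genes (H2AC20, H2AC14 and H2AC6) and 3 H1 genes (H1-3, H1-4 and H1-5).

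Among H2B genes, H2BC8 (ENSG00000273802.2, chr6:26215159-26216692, minus strand) was at 2.71, 2.88 and 2.63 CPM in control and 14.1, 11.2 and 11.2 CPM with lurbinectedin. Every treated library was above every control, and the log2 fold change was 2.15 ± 0.18 (SE, adjusted p = 1.08e-07 by edgeR). H2BC21 (chr1:149884459-149886652, minus strand) was at 4.62, 4.28 and 5.20 CPM in control and 19.4, 15.7 and 18.9 CPM with lurbinectedin, a log2 fold change of 1.93 ± 0.16 (edgeR adjusted p = 1.39e-07). H2BC5 was at 24.6, 19.4 and 19.4 CPM with lurbinectedin, a rise of 1.05 ± 0.17 (log2, adjusted p = 5.74e-05, edgeR). The abundant H2BC12 was at 67.7, 52.3 and 55.2 CPM, a rise of 0.72 ± 0.19 (log2, adjusted p = 0.0036, edgeR). H2BC15 and H2BC11 were the other H2B genes that rose, by 1.28 and 1.18 on the log2 scale. With library size as the only scaling the calls of H2BC12 (0.48, edgeR adjusted p = 0.0977) and H2BC11 (0.95, edgeR adjusted p = 0.051) were lost.

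The largest log2 fold change of any member was that of H2AC17 (chr6:27892699-27893185), at 3.27 ± 0.46 (SE, adjusted p = 2.23e-05 by edgeR). H2AC17 was at 0.067, 0.134 and 0.149 CPM in control and 1.36, 0.938 and 1.24 CPM with lurbinectedin. It had at most 34 counts in a library, and 71.0% of its exonic bases lie within exons of H3C12 on the same strand. Of the 17 members called higher, H2AC17 and H4C12 reached 10 counts in every library only in groups with lurbinectedin. They could be tested because they were high there. H3C12, an H3 gene, was at 0.469, 0.802 and 0.508 CPM in control and 3.59, 1.76 and 2.40 CPM with lurbinectedin, a log2 fold change of 2.10 ± 0.34 (edgeR adjusted p = 7.47e-05). Reads from the shared bases of H2AC17 and H3C12 cannot be told apart. H3C10, which shares no exonic base with another gene, was at 1.24, 1.44 and 1.25 CPM in control and 3.68, 3.21 and 4.22 CPM with lurbinectedin, a log2 fold change of 1.5 ± 0.21 (edgeR adjusted p = 1.81e-05).

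Among H4 genes, H4C14 (chr1:149832659-149839767) was at 0.369, 0.334 and 0.329 CPM in control and 2.18, 1.52 and 2.11 CPM with lurbinectedin, a log2 fold change of 2.48 ± 0.27 (SE, adjusted p = 1.52e-06 by edgeR). Of its 50-base words, 97.5% occur in another gene, so the rise cannot be placed on this copy. H4C8 was at 1.78, 1.40 and 1.79 CPM in control and 4.22, 2.97 and 2.87 CPM with lurbinectedin, with 0.0% of words shared and a log2 fold change of 1.0 ± 0.22 (edgeR adjusted p = 0.00087). H4C3, which fell with teriflunomide, was at 12.5, 8.56 and 10.8 CPM with lurbinectedin, a rise of 0.66 ± 0.21 (log2, adjusted p = 0.0131, edgeR). The lowest lurbinectedin value of H4C3 exceeded the highest control value of 8.45 CPM by little, and the call was lost without control replicate 1, control replicate 2 or lurbinectedin replicate 1, and with library size as the only scaling (highest adjusted p 0.176). H4C1 was at 0.503, 0.435 and 0.866 CPM in control and 0.436, 0.430 and 0.400 CPM with lurbinectedin and did not pass (-0.52 ± 0.39, adjusted p = 0.238, edgeR).

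Of the 6 members called lower, 4 (H2AC20, H2AC14, H1-3 and H1-5) reached 10 counts in every library only in groups without lurbinectedin, so they could be tested because they were high there. H2AC20 (ENSG00000184260.6, chr1:149886918-149887411, plus strand), with 4 to 10 counts in a lurbinectedin library, was at 1.17, 1.54 and 1.43 CPM in control and 0.339, 0.156 and 0.363 CPM with lurbinectedin. No treated library reached a control, and the log2 fold change was -2.26 ± 0.31 (SE, adjusted p = 1.74e-05 by edgeR). H2AC14 was at 0.637, 1.04 and 1.02 CPM in control and 0.291, 0.117 and 0.218 CPM with lurbinectedin, a log2 fold change of -2.11 ± 0.43 (edgeR adjusted p = 0.000583), with 83.7% of its 50-base words shared with another gene. H2AC6, whose annotation runs on for 1128 bases after the stem-loop, was at 8.19, 7.15 and 5.31 CPM with lurbinectedin, a log2 fold change of -0.54 ± 0.17 (edgeR adjusted p = 0.0123). Without lurbinectedin replicate 3 its adjusted p was 0.0697.

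The H1 family divided. H1-2 was at 10.7, 11.3 and 10.9 CPM in control and 18.2, 17.6 and 19.3 CPM with lurbinectedin, a rise of 0.74 ± 0.13 on the log2 scale (SE, adjusted p = 0.000197 by edgeR). H1-3 was at 0.603, 0.401 and 0.717 CPM in control and 0.0969, 0.156 and 0.327 CPM with lurbinectedin, a log2 fold change of -1.5 ± 0.46 (edgeR adjusted p = 0.00936). H1-4 (1.07, 1.33 and 1.27 CPM with lurbinectedin) and H1-5 (0.533, 0.352 and 0.545 CPM) fell by 0.72 and 1.10 on the log2 scale. The call of H1-4 was lost without control replicate 1, control replicate 3 or lurbinectedin replicate 1, where its log2 fold change was -0.59, -0.63 and -0.65. The call of H1-5 was lost without control replicate 1 (-0.79, edgeR adjusted p = 0.0688) or lurbinectedin replicate 2 (-0.93, edgeR adjusted p = 0.0506). All 4 genes stand within the chromosome 6 cluster.

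Histone genes of the H2A and H2B families often stand head to head and share the stretch between their starts. Among the members, 11 such pairs had starts 215 to 283 bases apart, and in 8 pairs both members were tested. With lurbinectedin 36.0% of all genes tested were called higher and 35.7% lower, so calls in either direction were common. Among the 8 pairs, 2 had both members called higher (H2BC8 with H2AC8, and H2BC11 with H2AC11), 1 had its members called in opposite directions, 4 had a single member called and 1 had none. Whether other neighbouring genes divide in the same way was not tested. The pair in opposite directions was H2BC21 and H2AC20, whose starts lie 266 bases apart: H2BC21 rose by 1.93 ± 0.16 and H2AC20 fell by 2.26 ± 0.31 on the log2 scale. With the combination the same genes were at 2.06 ± 0.16 and -2.81 ± 0.33. This pair was singled out after its values were seen, and H2AC20 could be tested through the control and teriflunomide groups, where it was high.

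Promoters from RefSeq (GRCh38.p14, 250 bases before to 50 bases after the start) were found for 62 of the 68 members. Those of the divergent pair's H2BC21, of H2BC8 and of the H1 genes H1-2 and H1-5, which moved apart, are printed to show the motifs in place. Capitals mark matches to 4 short motifs, each searched on both strands, none of which contains another. The motif of the general promoter element that binds the TATA-binding protein was searched as TATAAA. The element bound by the trimeric factor NF-Y was searched as CCAAT. The core of the octamer element known from promoters of H2B genes was searched as TTTGCAT. The element that is known from promoters of linker histone genes was searched as AAACACA.
H2BC21, chr1:149886633-149886932, minus strand: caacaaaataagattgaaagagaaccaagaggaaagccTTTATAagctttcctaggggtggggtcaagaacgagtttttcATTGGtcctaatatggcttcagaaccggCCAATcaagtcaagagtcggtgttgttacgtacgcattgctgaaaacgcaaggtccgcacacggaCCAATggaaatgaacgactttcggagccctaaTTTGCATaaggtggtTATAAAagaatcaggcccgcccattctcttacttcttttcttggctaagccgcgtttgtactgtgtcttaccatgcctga
H2BC8, chr6:26216639-26216938, minus strand: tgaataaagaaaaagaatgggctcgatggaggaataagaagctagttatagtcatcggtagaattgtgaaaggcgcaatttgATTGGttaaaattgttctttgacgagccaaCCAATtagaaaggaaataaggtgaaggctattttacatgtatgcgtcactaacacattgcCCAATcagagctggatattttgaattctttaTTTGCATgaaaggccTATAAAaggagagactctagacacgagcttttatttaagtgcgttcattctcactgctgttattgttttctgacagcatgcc
H1-2, chr6:26056421-26056720, minus strand: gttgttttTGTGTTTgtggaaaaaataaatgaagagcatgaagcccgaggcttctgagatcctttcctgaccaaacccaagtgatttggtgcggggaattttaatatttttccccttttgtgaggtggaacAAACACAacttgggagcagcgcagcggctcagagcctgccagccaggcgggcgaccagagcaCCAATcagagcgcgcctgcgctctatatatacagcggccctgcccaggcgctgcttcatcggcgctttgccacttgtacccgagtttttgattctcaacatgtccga
H1-5, chr6:27867539-27867838, minus strand: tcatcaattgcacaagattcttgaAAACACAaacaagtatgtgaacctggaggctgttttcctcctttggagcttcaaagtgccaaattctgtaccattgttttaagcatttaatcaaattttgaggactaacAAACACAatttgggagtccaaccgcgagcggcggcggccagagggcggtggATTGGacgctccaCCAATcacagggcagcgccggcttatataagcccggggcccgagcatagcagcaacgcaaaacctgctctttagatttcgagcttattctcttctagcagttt
TTTGCAT was in the promoters of 14 of 18 H2B and 11 of 14 H2A members and no H1 or H4 member, against 4.46% of all 35116 promoters. Its only match among H3 members was H3C4, whose promoter entry is the same window as that of H2AC7. Windows of head-to-head genes overlap, so the 26 member promoters with a match held 17 distinct sites, 8 of them in the windows of more than 1 member. AAACACA was in 6 of 6 H1 promoters, against 5.64% of all, and thus both in H1-2, which rose with lurbinectedin, and in H1-3, H1-4 and H1-5, which fell. CCAAT was in all H1, H2A, H2B and H3 promoters found and in 3 of 13 H4 promoters, against 34.6% of all. TATAAA was in 40 of 62 member promoters and 11.5% of all. A match on either strand counted, and a site in overlapping windows was counted for each member. The motifs TTTGCAT and TATAAA, with CCAAT, were together in promoters of members that rose with lurbinectedin (H2BC8 and H2BC21), that fell (H2AC20, H2AC14 and H2AC6) and that were not called (H2BC4 and H2BC14). Of these, H2BC21 with H2AC20, H2AC6 with H2BC4, and H2AC14 with H2BC14 are head-to-head pairs whose windows overlap. Each pair shares its TTTGCAT site and its TATAAA matches, so the same bases are counted for members with different outcomes. In H2BC4 and H2BC14 the only TATAAA match lies on the opposite strand and is the match of the partner, H2AC6 or H2AC14. The part of the motifs in the outcomes was not tested.

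The combination changed 21 of the 42 tested members, 13 upward and 8 downward, where 34.1% of all genes were called higher and 34.4% lower. The members called higher and lower were 31.0% and 19.0% of those tested. Of the 3337 tested genes of shortest span, which held 33 of the 42 tested members, 46.9% were called higher and 11.7% lower. The largest rises were those of H2AC17, H4C14, H2BC21 and H4C12. Of the 13 members that rose, H2AC17 and H4C12 did not reach 10 counts in every control library and could be tested through the groups with lurbinectedin. H2AC17 was at 0.507, 1.18 and 0.606 CPM with the combination (log2 fold change 2.63 ± 0.49), H4C14 at 1.45, 1.90 and 1.75 CPM (2.29 ± 0.27) and H2BC21 at 18.5, 24.2 and 16.4 CPM (2.06 ± 0.16). H4C12 was at 0.168, 0.134 and 0.329 CPM in control and 0.652, 0.801 and 0.893 CPM with the combination, a log2 fold change of 1.86 ± 0.39 (SE, adjusted p = 0.00076 by edgeR), but 100% of its 50-base words occur in another gene. Of the 8 falls, 7 were in members that did not reach 10 counts in every combination library and could be tested through other groups; the exception was H1-4. The largest falls were those of H2AC20, at 0.181, 0.211 and 0.191 CPM (-2.81 ± 0.33), and H1-3, at 0.0724, 0.126 and 0.128 CPM (-2.36 ± 0.50). In these 6 genes no combination library overlapped a control library, which is likely in genes picked for the largest called changes. The share of all genes without overlap was not counted.

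Members that had fallen with teriflunomide took different positions in the combination. H4C3 was at 6.99, 8.47 and 9.22 CPM, overlapping the control range, with a log2 fold change from control of 0.29 ± 0.21 (SE, adjusted p = 0.24 by edgeR). H2BC9 was at 2.498, 4.21 and 2.84 CPM, also overlapping control. H1-4 at 0.796, 0.843 and 0.893 CPM, H1-5 at 0.471, 0.421 and 0.191 CPM and H2AC16 at 0.290, 0.253 and 0.191 CPM were below every control library, with log2 fold changes of -1.26 ± 0.25, -1.52 ± 0.35 and -1.01 ± 0.34. H2AC14, at 0.253, 0.548 and 0.287 CPM (-1.33 ± 0.38, edgeR adjusted p = 0.00691), H4C1, at 0.181, 0.379 and 0.223 CPM, and H2BC13, at 0.145, 0.379 and 0.128 CPM, were the other members called lower. The calls of H2AC16, H4C1 and H2BC13 were each lost when some single control or combination library was left out, with log2 fold changes there of -0.85 to -0.96, -0.87 to -1.13 and -1.03 to -1.44, and 5 members were called lower without control replicate 3 or without combination replicate 3. The abundant H2BC12 was at 46.0, 46.7 and 44.0 CPM, above every control library, with 0.36 ± 0.19 (log2, edgeR adjusted p = 0.101), and it was called without teriflunomide replicate 3 and combination replicate 2 at 0.34 ± 0.11.

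**Figure D4:**
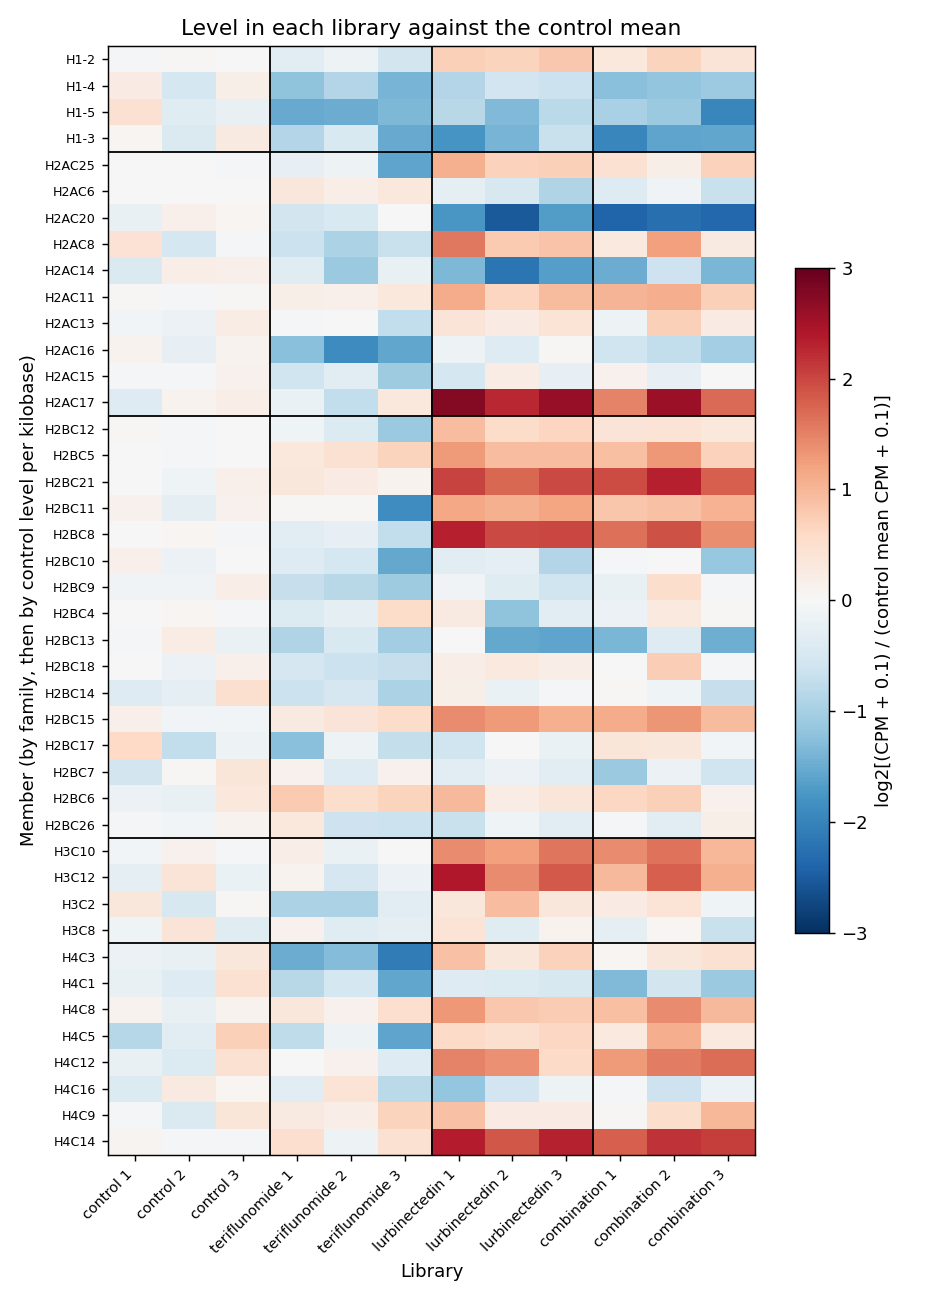
Level of the 42 tested members (rows, grouped by family and ordered by control level per kilobase) in each of the 12 libraries (columns), as log2 of the ratio of CPM + 0.1 to the control mean + 0.1. H2BC21, H2BC8, H2AC17, H3C10, H3C12 and H4C14 are red across the 6 libraries with lurbinectedin, and H2AC20, H1-3, H1-4 and H1-5 are blue there.

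The combination was also set against each drug alone. Against lurbinectedin alone no member was called by edgeR in either direction (smallest adjusted p 0.231, with 3 members at an unadjusted p under 0.05), and no gene among all 16683 was called (0.0%); DESeq2 called no member. Without teriflunomide replicate 3 and combination replicate 2, edgeR called 6 members lower in the combination than with lurbinectedin: H1-2, H2BC8, H2AC8, H2BC12, H3C12 and H2AC17, with log2 fold changes between -0.37 and -1.06. H2BC8 was at 8.80, 10.5 and 7.40 CPM with the combination and 14.1, 11.2 and 11.2 CPM with lurbinectedin, and H2BC12 at 46.0, 46.7 and 44.0 against 67.7, 52.3 and 55.2 CPM. In both genes every combination library was below every lurbinectedin library, but neither passed with all 12 libraries (edgeR adjusted p = 0.231 and 0.375). How many other genes separate in this way was not counted.

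Against teriflunomide alone, the combination had 22 members higher and 2 lower, with 70.9% of all genes called, 35.2% higher and 35.8% lower. The median log2 fold change was 0.77 in the tested members and 0.04 in all genes. Of the tested members 52.4% were called higher and 4.76% lower. The 3337 tested genes of shortest span, which held 33 of the 42 tested members, were near them. Their median was 0.70, with 51.3% called higher and 11.3% lower. This comparison shares no library with lurbinectedin against control, and the 17 members that rose with lurbinectedin alone were all among the 22, 77.3% of them. Over all genes, 86.5% of those called higher with lurbinectedin were also called higher here, and these were 88.4% of the latter. H2AC16, H2BC18, H2BC9, H3C2 and H4C5 rose only against teriflunomide among these lists; whether the effect of lurbinectedin differed is the interaction given below. H3C2 was at 0.117, 0.120 and 0.238 CPM with teriflunomide and 0.398, 0.464 and 0.287 CPM with the combination, a log2 fold change of 1.26 ± 0.44 (SE, adjusted p = 0.021 by edgeR), with 4 to 18 counts per library. The call of H3C2 was lost in 5 of 12 alternatives, DESeq2 among them (adjusted p = 0.066), and that of H2AC16 in 8 of 12, and the call of H4C5 was lost without combination replicate 2 (1.14, edgeR adjusted p = 0.0605). Of the 6 members that fell with lurbinectedin, H2AC20 and H2AC6 also fell against teriflunomide, 33.3% of them, and H1-3, H1-4, H1-5 and H2AC14 did not pass.

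**Figure D5:**
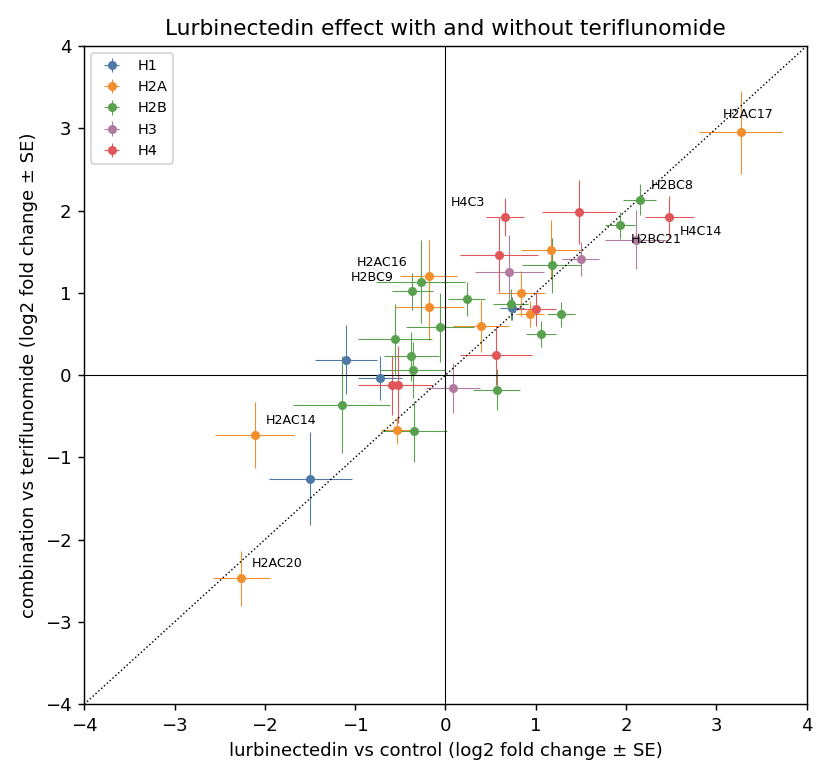
Log2 fold change ± SE of each tested member for lurbinectedin against control (x axis) and for the combination against teriflunomide (y axis), coloured by family, with the line of equality dotted. The 17 members that rose with lurbinectedin lie in the upper right, H2AC20 lies at the lower left, and H4C3 lies above the line at 0.66 and 1.92.

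The interaction asks whether the effect of teriflunomide differs in the presence of lurbinectedin. By edgeR it was called in no member (smallest adjusted p 0.118, 8 members at an unadjusted p under 0.05) and in 0.258% of all genes, 0.036% upward and 0.222% downward. The smallest adjusted p belonged to H2BC9, with an interaction of 1.38 ± 0.32 (log2, SE), and H4C3 had 1.26 ± 0.31 (edgeR adjusted p = 0.16). Both depended on the setting. DESeq2 called H4C3 at 1.28 ± 0.33 (adjusted p = 0.0147) and H2BC9 at 1.41 ± 0.36 (adjusted p = 0.0131). Without teriflunomide replicate 3, edgeR also called both, with adjusted p of 0.0372 and 0.0332. With teriflunomide the log2 fold change was -1.63 for H4C3 and -0.90 for H2BC9 without lurbinectedin, and -0.37 and 0.48 in its presence.

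Genes that act on histone messages and on replication were read from lists drawn up for this question. Their counts stand beside 3.88% of all genes called higher and 2.13% lower with teriflunomide, and 36.0% and 35.7% with lurbinectedin. The lurbinectedin shares differed by genomic span. Of the 3337 tested genes of longest span, 83.6% fell and 5.84% rose, against 12.3% and 51.1% of the 3337 of shortest span. Neither the genes named here nor those of the lists that follow were set against genes of like span. The part of span in their changes was thus not tested. SLBP, which binds the stem-loop, was at 97.2, 98.0 and 98.9 CPM in control, 78.3, 71.6 and 88.4 CPM with teriflunomide, and 142, 137 and 143 CPM with lurbinectedin. Every teriflunomide library was below control, with -0.30 ± 0.10 (log2, edgeR adjusted p = 0.0736), and SLBP rose by 0.52 ± 0.10 with lurbinectedin (edgeR adjusted p = 0.000204). NPAT was at 0.11 ± 0.13 with teriflunomide and 0.02 ± 0.13 with lurbinectedin on the log2 scale, neither passing (edgeR adjusted p = 0.631 and 0.908). Of 18 genes of histone transcription and 3′ end processing, none was called with teriflunomide, and with lurbinectedin 8 rose and 6 fell. ZNF473, a component of the U7 snRNP-dependent processing machinery, rose by 1.53 ± 0.10, and SRRT, which links the cap-binding complex to processing, by 1.39 ± 0.11, whereas the cap-binding subunit gene NCBP1 fell by 1.06 ± 0.09 and GON4L by 1.29 ± 0.11 (log2 ± SE). Of 10 genes of histone message decay, 2 rose and 7 fell with lurbinectedin and none was called with teriflunomide; DIS3L2, an exonuclease that degrades uridylated RNA, fell by 4.77 ± 0.18 and the exonuclease gene XRN1 by 2.05 ± 0.17, and the helicase gene UPF1 rose by 1.49 ± 0.14.

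Of 10 tested genes of other histone variants, none was called with teriflunomide, and 3 rose and 2 fell with lurbinectedin. H2AX, the variant phosphorylated at DNA breaks, whose message is known in both a stem-loop and a polyadenylated form, was at 125, 117 and 125 CPM in control and 451, 368 and 391 CPM with lurbinectedin, a rise of 1.72 ± 0.23 (log2, edgeR adjusted p = 1.35e-05). H3-3A and H3-3B, which encode H3.3, rose by 0.95 ± 0.12 and 0.69 ± 0.10. Of 20 histone chaperone genes, SSRP1, a subunit of FACT, fell with teriflunomide by 0.34 ± 0.09 (log2, edgeR adjusted p = 0.0351); with lurbinectedin 10 rose and 6 fell, with CABIN1 at -2.35 ± 0.16, ATRX at -2.94 ± 0.23 and DAXX at 1.19 ± 0.11.

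Of 40 DNA replication genes, 7 fell with teriflunomide and none rose, where 2.13% of all genes were called lower and 3.88% higher. They were MCM2, MCM4, MCM5, MCM6 and MCM7, subunits of the replicative helicase, and the polymerase genes POLE and POLD2, with falls of 0.36 (MCM4) to 0.77 (MCM5) on the log2 scale. With lurbinectedin 12 rose and 13 fell, where 36.0% and 35.7% of all genes did: PCNA, the sliding clamp, rose by 1.38 ± 0.08, and POLA1 and PRIM2, of the DNA polymerase alpha-primase complex, fell by 4.03 ± 0.19 and 3.19 ± 0.16. Of 17 G1 to S regulators, CDKN1A, which encodes the p21 inhibitor of cyclin-dependent kinases, was at 23.2, 21.1 and 24.2 CPM in control, 52.1, 52.3 and 26.7 CPM with teriflunomide and 654, 572 and 632 CPM with lurbinectedin. CDKN1A rose by 0.94 ± 0.19 with teriflunomide (log2, edgeR adjusted p = 0.0141), with replicate 3 near the control range, and by 4.76 ± 0.22 with lurbinectedin. The repressor E2F7 rose and the activator E2F2 fell with teriflunomide (0.71 ± 0.10 and -0.92 ± 0.21), and 10 regulators rose and 5 fell with lurbinectedin.

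Noncoding RNAs that carry no poly(A) tail were followed as a measure of such RNA in the libraries. The list holds small nuclear and nucleolar RNAs and also RN7SL1, RN7SL2, RMRP, RPPH1, TERC and VTRNA1-1. The 27 genes found summed to 2.51 to 2.88 CPM in control and 1.33 to 2.55 CPM with teriflunomide. They summed to 16.8 to 22.8 CPM with lurbinectedin and 8.77 to 22.6 CPM with the combination, so all 6 libraries that received lurbinectedin were above all others. Only 8 of the 27 passed the filter on low counts, which a gene can pass through the groups where it is high, so no count of calls is given. The summed level of the members was also higher in those 6 libraries, although 6 members were called lower with lurbinectedin. With lurbinectedin the median log2 fold change was -0.12 in the shorter members and 0.58 in the longer ones. The part of such RNA in the levels of the members was not tested.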

How the data were processed

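The authors deposited raw read counts per gene for 12 libraries, 3 in each of 4 groups given by the treatment label; the counts are whole numbers with no scaling. Per the submitters' processing notes, fastp 0.23.2, STAR 2.7.9, Subread and featureCounts were used with build hg38, and per the labels' protocols the KAPA mRNA HyperPrep kit was used for the libraries. Strand use and the treatment of reads with several matches are not given in the sources used here.

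Identifiers were matched to a table of gene names (60507 of 60649, 99.8%); the identifiers that table gives for H2AC18 and H2AC19 were not matched. From the counts, edgeR 4.0.16 in R 4.3.3 was fitted to all 12 libraries with 1 mean per group (filterByExpr on the groups, TMM, robust quasi-likelihood), and p-values were adjusted by Benjamini-Hochberg over all 16683 genes tested, in each of 6 contrasts, with calls at an adjusted p under 0.05. The script was tested on simulated data. SE is the log2 fold change divided by the root of the F statistic. CPM uses TMM-scaled library sizes, and CPM per kilobase divides by exonic length. Alternatives were other scalings and filters, a replicate block, fits with 1 library or both libraries of high mitochondrial share left out, only the groups compared, family totals, and DESeq2 1.42.0.

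Transcripts came from GENCODE 29 and promoters from RefSeq. Figures were drawn with matplotlib 3.10.9. The members and gene lists were chosen with earlier results of these data known. Values in every library are given for H4C3, for up to 6 called members with the largest change in each contrast with control, and for up to 3 members with the highest control level per kilobase in each family; of other lists SLBP, NPAT, H2AX, CDKN1A and up to 3 with the smallest adjusted p per contrast could be named. SCARNA7 and other genes picked by that last rule are covered by the counts of their lists. Some genes of these lists are not reported here by name.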

Additional observations from a re-analysis of the deposited data

How the results depend on the processing

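Of 975 refits of a called member under an alternative, 913 kept the call and 62 lost it, and none changed sign. These refits cover members already called, and most use the same libraries. Family totals are not among them. Summed H1 rose with lurbinectedin by 0.49 ± 0.13 (log2, SE, edgeR adjusted p = 0.00478), although 3 of 4 tested H1 genes were called lower. With teriflunomide, 5 members were called lower; this became 3 with a filter at 1 CPM, 3 with DESeq2, 2 with only the groups compared in the fit, and 2 of 5 families when reads were summed by family. A call upward, 1 member, appeared with DESeq2, and 1 without teriflunomide replicate 3 and combination replicate 2. Leaving out each library in turn gave 2 to 6 lower and 0 higher. With lurbinectedin, leave-one-out gave 15 to 20 higher and 4 to 6 lower; a filter at 1 CPM, which keeps fewer members, left 3 lower, and family totals gave 4 higher and 0 lower. For the combination against control, leave-one-out gave 12 to 15 higher and 5 to 10 lower; a filter at 1 CPM left 2 lower, and family totals gave 3 higher and 0 lower. Against teriflunomide, leave-one-out gave 19 to 24 higher and 2 to 3 lower, and family totals 4 higher and 0 lower. Against lurbinectedin, leave-one-out gave 0 in both directions, and 6 were called lower without both libraries of high mitochondrial share. The interaction gave 0 to 2 higher and 0 lower in leave-one-out, 2 higher with no expression filter, 2 with DESeq2, and 2 higher and 1 lower without both those libraries. Beyond the smaller number of genes or samples in these settings, the cause was not tested.

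Library size as the only scaling moved the median of all genes from 0.05 to -0.18 with lurbinectedin and from 0.04 to -0.13 with the combination, and summed member CPM in control from 126 to 138. With a replicate block, teriflunomide called 4 lower and 0 higher, and no other count changed. Libraries with the same number did not deviate together: 1 of 18 pairs had a correlation over 0.1 (range -0.4 to 0.14), and 0 of 12 libraries correlated best with their own number. Low counts limit the precision of many members: 23 of the 42 tested had at least 10 counts in every library.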
